A study of Homo sapiens with 54 samples.

Results

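BT549 cells treated with dexamethasone (DEX), a synthetic glucocorticoid, were given BRM014 for 4 h, a compound that blocks the motor subunits of SWI/SNF chromatin remodellers. The comparison described here took its members from the labels: the 3 RNA-seq libraries labelled DEX+BRM014 (4h) against the 3 labelled DEX+DMSO (4h), which are 6 of the 54 samples of the study. All 6 came from BT549, an established human triple-negative breast cancer cell line that the labels call wild type, and all 6 cultures received 500 nM DEX. The DEX+BRM014 cultures also received 10 µM BRM014, which was dissolved in DMSO, and the controls received DMSO. The labels do not say whether the inhibitor was added before DEX or with it. They number the libraries as biological replicates without saying how the cultures were separated. Each p-value and SE of a BRM014 effect reflects only the spread between such libraries. Unless said otherwise, that spread was estimated over all 24 libraries of the BRM014 experiment and not from these 6 alone. Every result holds for 1 cell line, 1 compound and 1 dose. Other libraries are set beside them: DMSO and BRM014 for 4 h without DEX, DEX+DMSO and DEX+BRM014 for 24 h, and siRNA experiments in the same cell line.

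SWI/SNF (BAF) complexes use the energy of ATP to slide or evict nucleosomes, and their motor is either of a pair of related ATPases, BRG1 (SMARCA4) or BRM (SMARCA2), both of which BRM014 inhibits. Open enhancers need this activity to stay open, and transcription factors recruit it to regions they bind. The glucocorticoid receptor (NR3C1) is one such factor. Once DEX binds it, the receptor moves to the nucleus, activates a core set of genes such as FKBP5, TSC22D3 and PER1 from enhancers, and lowers many inflammatory genes that AP-1 and NF-kB drive. In breast cancer cells the receptor often binds at regions that AP-1 family proteins also occupy.

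The 6 libraries held between 20496258 and 25540539 counts assigned to genes, of ribosomal RNA-depleted total RNA. Genes that mark mesenchymal breast cancer lines were high in all 6, with VIM between 1651 and 1908 CPM (counts scaled to library size with factors from the trimmed mean of M values, TMM) and SPARC between 910.2 and 1085 CPM. The epithelial genes EPCAM, ESRP1, GRHL2 and OVOL2, the hormone receptor genes ESR1 and PGR, and the leukocyte and endothelial genes CD3E and CDH5 each stayed under 0.5 CPM. Other markers of these kinds were higher. CDH1 lay between 5.20 and 10.1 CPM, ERBB2 between 70.0 and 83.5 CPM and the luminal gene GATA3 between 14.8 and 32.7 CPM. The leukocyte genes CD14 and PTPRC lay between 1.47 and 8.40 CPM and between 0.513 and 0.820 CPM. Of 11 leukocyte markers 4 had no count, and their summed level was 19.9 to 23.3 CPM in DEX+DMSO and 18.5 to 21.3 CPM in DEX+BRM014. CD68, 1 of these 11, alone stood at 14.5, 14.5 and 15.4 CPM with DMSO and no DEX at 4 h. Of 9 endothelial markers 2 had no count, and their sum was 1.54 to 2.41 CPM in DEX+DMSO and 0.906 to 1.06 CPM in DEX+BRM014. DEX+BRM014 replicate 2 stood apart from its fellow replicates. Its deviations from its group had an SD of 0.277 on the log2 scale against 0.0931 to 0.187 in the other 5 libraries, it held 17.9 CPM of ZEB1 against 83.9 and 106 CPM in replicates 1 and 3, and 664 CPM of MALAT1 against 1457 and 1565 CPM. Over 10220 genes those deviations had a Spearman correlation of -0.33 with transcript length and 0.53 with GC content; genes are not independent replicates, and the part of RNA quality in any result was not tested. The main counts below are also given without this library.

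More genes fell than rose with BRM014 under TMM scaling (the order turned with library totals), and the largest changes were falls. Of 14547 genes tested, 1864 were called (12.8%) by edgeR's quasi-likelihood test with a Benjamini-Hochberg adjusted p under 0.05, which is the meaning of "called" throughout. Of these, 1082 fell (7.44%) and 782 rose (5.38%). At least 2-fold falls were called for 417 genes and at least 2-fold rises for 123. At least 4-fold falls were called for 129 genes and at least 4-fold rises for 13. The median log2 fold change of all genes tested was -0.01. With library totals in place of the trimmed mean scaling the split turned to 931 lower and 1321 higher, while the 2-fold counts stayed on the side of the falls with 370 lower and 165 higher. Without DEX+BRM014 replicate 2, 860 genes were called lower and 554 higher. Of the 1082 genes called lower with all libraries, 841 were called lower again, and all 1082 had the same sign.

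**Figure D1:**
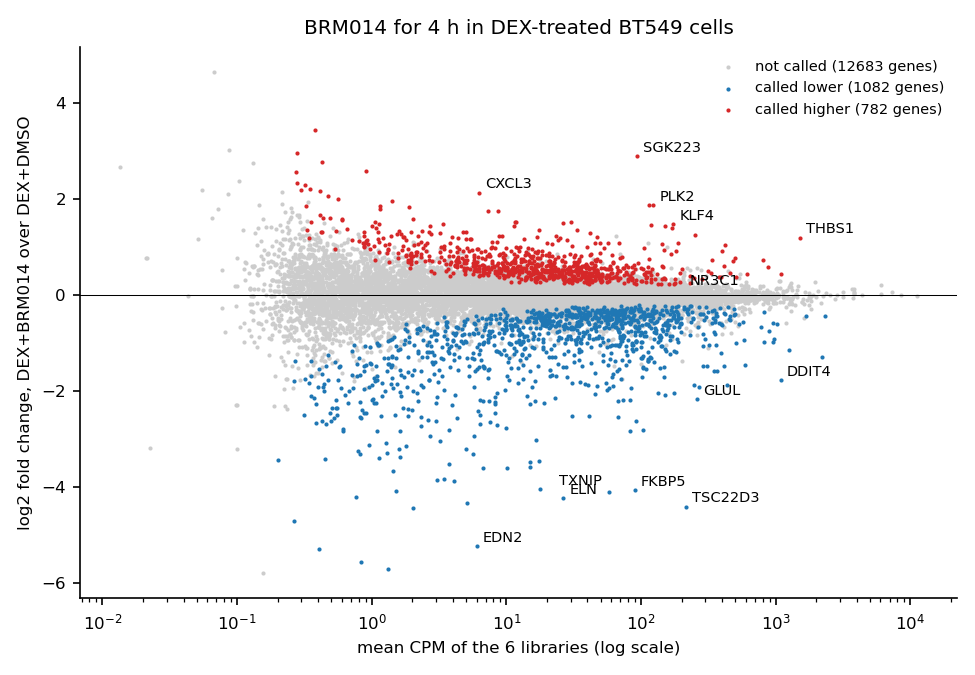
Each point is 1 of 14547 genes, placed by its mean CPM over the 6 libraries (log scale) and its log2 fold change of DEX+BRM014 over DEX+DMSO at 4 h; blue and red points were called lower (1082) and higher (782). The falls reach further from 0 than the rises, from EDN2 at -5.22 among genes of at least 5 CPM to SGK223 at 2.89, and NR3C1 lies near 0.

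The mRNAs of the drug's targets were not called. SMARCA4 (BRG1) stood at 261.4, 333 and 338.5 CPM in the DEX+DMSO libraries and 335, 373 and 339.9 CPM in the DEX+BRM014 libraries, so the groups overlapped (log2 fold change 0.17 ± 0.12 (SE, n = 3 per group), edgeR adjusted p = 0.470). SMARCA2 (BRM) stood lower at 11.8, 9.81 and 11.7 CPM in the DEX+DMSO libraries and 10.9, 10.3 and 10.9 CPM in the DEX+BRM014 libraries and also overlapped (-0.06 ± 0.16 (SE, n = 3 per group), edgeR adjusted p = 0.909). Levels are not corrected for transcript length, so the order of these 2 genes is one of read counts. Of 26 SWI/SNF subunit genes tested, 2 fell (7.69%) and 1 rose (3.85%), with a median of 0.07, near the shares over all genes tested (7.44% and 5.38%). DPF3 and DPF1, alternative histone-reading subunits of BAF, fell by 0.94 and 0.77 on the log2 scale. GLTSCR1L (BICRAL), a subunit of the noncanonical BAF form, rose 2.10-fold, with 11.1, 13.8 and 13.5 CPM in the DEX+DMSO libraries and 26.04, 26.99 and 27.8 CPM in the DEX+BRM014 libraries.

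The receptor itself was likewise not called. NR3C1 stood at 193, 199 and 202 CPM in the DEX+DMSO libraries and 224, 186 and 235 CPM in the DEX+BRM014 libraries (0.12 ± 0.25 (SE, n = 3 per group), edgeR adjusted p = 0.873). Among 19 tested genes of the receptor, its chaperones and its cofactors, 3 fell and 1 rose (21.1% called, 12.8% over all genes tested). Their median was -0.07. The 3 that fell were FKBP5, the receptor's inhibitory co-chaperone and itself a target gene, and NCOA3 and NCOA1, p160 coactivators, which fell by 0.55 and 0.42 on the log2 scale. NCOA3 stood at 162, 156 and 146 CPM in the DEX+DMSO libraries and 117, 101 and 98.3 CPM in the DEX+BRM014 libraries. The 1 that rose was HSD11B2, the enzyme that inactivates cortisol but acts little on DEX, at a low level of 0.410, 0.719 and 0.641 CPM in the DEX+DMSO libraries and 1.31, 1.14 and 2.26 CPM in the DEX+BRM014 libraries; without DEX+BRM014 replicate 3 its edgeR adjusted p was 0.0587. The chaperone genes HSP90AA1, HSP90AB1, PTGES3 and STIP1 and the corepressor NCOR1 were not called.

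The 14 largest falls among genes of at least 5 CPM had log2 fold changes from -5.22 to -3.51, and the known glucocorticoid targets TSC22D3 and FKBP5 were among them. TSC22D3 (GILZ), an anti-inflammatory leucine zipper protein, stood at 367, 419 and 450.5 CPM in the DEX+DMSO libraries and 17.98, 18.9 and 21.4 CPM in the DEX+BRM014 libraries. Every DEX+BRM014 library was thus more than an order of magnitude under every control (-4.41 ± 0.20 (SE, n = 3 per group), edgeR adjusted p = 4.91e-12). FKBP5 stood at 161, 168 and 179 CPM in the DEX+DMSO libraries and 10.9, 8.14 and 11.4 CPM in the DEX+BRM014 libraries, a 16.7-fold lower level (-4.06 ± 0.22 (SE, n = 3 per group), edgeR adjusted p = 1.32e-10). The DEX+BRM014 values all lay between 8 and 12 CPM. ELN, which encodes elastin, stood at 36.2, 55.9 and 57.7 CPM in the DEX+DMSO libraries and 2.77, 2.77 and 2.47 CPM in the DEX+BRM014 libraries (-4.22 ± 0.25 (SE, n = 3 per group), edgeR adjusted p = 2.80e-10). TXNIP, which binds thioredoxin and restrains glucose uptake, stood at 138, 97.7 and 91.02 CPM in the DEX+DMSO libraries and 7.45, 5.66 and 6.05 CPM in the DEX+BRM014 libraries (-4.09 ± 0.24 (SE, n = 3 per group), edgeR adjusted p = 2.47e-10). In both genes the 3 inhibitor libraries lay close together and far under the controls. EDN2, the vasoactive peptide endothelin 2, had the largest fall of the 14, with 8.35, 14.003 and 12.7 CPM in the DEX+DMSO libraries and 0.201, 0.244 and 0.469 CPM in the DEX+BRM014 libraries (-5.22 ± 0.41 (SE, n = 3 per group), edgeR adjusted p = 4.05e-08). F3, tissue factor, which starts blood coagulation, stood at 8.96, 10.1 and 9.91 CPM in the DEX+DMSO libraries and 0.554, 0.407 and 0.469 CPM in the DEX+BRM014 libraries (-4.34 ± 0.28 (SE, n = 3 per group), edgeR adjusted p = 8.24e-10).

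Of the other 8 of these 14 genes, ADAMTS8, a secreted metalloprotease, stood at 27.6, 33.9 and 39.8 CPM in the DEX+DMSO libraries and 1.71, 1.75 and 2.68 CPM in the DEX+BRM014 libraries and fell by 4.04 on the log2 scale. ZBTB16 (PLZF), a zinc finger repressor that is a classic glucocorticoid target, stood at 12.3, 13.1 and 12.002 CPM in the DEX+DMSO libraries and 1.46, 0.855 and 0.809 CPM in the DEX+BRM014 libraries and fell by 3.59. MT1M, a metal-binding metallothionein, stood at 25.9, 29.1 and 28.02 CPM in the DEX+DMSO libraries and 2.62, 2.61 and 1.70 CPM in the DEX+BRM014 libraries and fell by 3.58. ITPKA, a kinase of inositol trisphosphate, stood at 17.9, 18.5 and 19.5 CPM in the DEX+DMSO libraries and 1.21, 1.59 and 1.75 CPM in the DEX+BRM014 libraries and fell by 3.61. The remaining 4 were FGD4, an exchange factor for CDC42 (-3.88), ALOX15B, a lipoxygenase (-3.85), SLC2A14, a glucose transporter (-3.83), and TMEM63C, a membrane channel protein (-3.51). Each lay between 5 and 9 CPM in every DEX+DMSO library and under 0.7 CPM in every DEX+BRM014 library. SLC2A14 is nearly identical to SLC2A3 and the MT1 genes to each other, so reads may have been divided among the copies. The groups did not overlap in any of the 14 genes, as the choice required; over all genes tested the groups did not overlap in 34.3%.

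**Figure D2:**
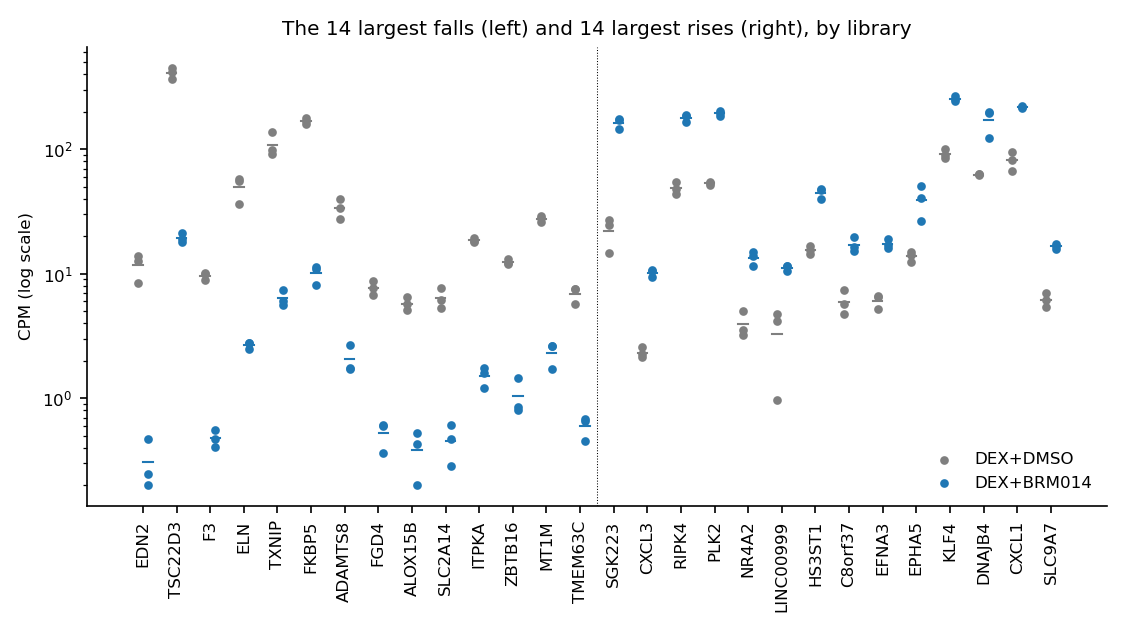
CPM on a log scale of the 14 genes with the largest fall (left of the dotted line) and the 14 with the largest rise (right), with 1 point per library (grey DEX+DMSO, blue DEX+BRM014, n = 3 each) and a short line at each group mean. Falls span about 1 order of magnitude or more, as in TSC22D3 from 412 to 19.4 CPM, while rises are smaller, as in PLK2 from 53.2 to 194 CPM.

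The 14 largest rises ran from 1.43 to 2.89 on the log2 scale. SGK223 (PRAG1), a pseudokinase that interacts with SRC family signalling, stood at 14.8, 24.8 and 26.9 CPM in the DEX+DMSO libraries and 174, 173 and 146 CPM in the DEX+BRM014 libraries (2.89 ± 0.29 (SE, n = 3 per group), edgeR adjusted p = 8.39e-07). PLK2, a polo-like kinase of the stress response, stood at 54.4, 51.7 and 53.3 CPM in the DEX+DMSO libraries and 195, 204 and 183 CPM in the DEX+BRM014 libraries, a 3.65-fold higher level (1.87 ± 0.14 (SE, n = 3 per group), edgeR adjusted p = 6.03e-09). RIPK4, a kinase needed for epidermal differentiation, stood at 43.5, 47.6 and 54.6 CPM in the DEX+DMSO libraries and 186, 188 and 164 CPM in the DEX+BRM014 libraries and rose 3.69-fold. All 3 inhibitor libraries were above all controls in each of these kinase genes, as the choice of the 14 required. Over all genes tested the groups did not overlap in 34.3%. The chemokines CXCL3 and CXCL1, which attract neutrophils, rose 4.38-fold and 2.70-fold. CXCL3 stood at 2.25, 2.16 and 2.56 CPM in the DEX+DMSO libraries and 9.47, 10.7 and 10.5 CPM in the DEX+BRM014 libraries. CXCL1 stood at 66.8, 81.4 and 95.8 CPM in the DEX+DMSO libraries and 224, 215 and 219.7 CPM in the DEX+BRM014 libraries. The Krüppel-like factor KLF4 stood at 85.1, 90.5 and 100.3 CPM in the DEX+DMSO libraries and 254.2, 267.4 and 244 CPM in the DEX+BRM014 libraries and rose 2.77-fold, and the orphan nuclear receptor NR4A2 stood at 3.23, 3.55 and 5.04 CPM in the DEX+DMSO libraries and 14.9, 11.4 and 13.8 CPM in the DEX+BRM014 libraries and rose 3.38-fold. The rest were HS3ST1, which sulfates heparan sulfate (1.53), the cilium-associated gene C8orf37 (1.52), the ephrin ligand EFNA3 (1.52), the sodium-proton exchanger SLC9A7 (1.43), the noncoding RNA LINC00999 (1.74), the ephrin receptor EPHA5 (1.505) and the co-chaperone DNAJB4 (1.46). With 1 library left out in turn, the edgeR adjusted p of EPHA5 lay between 0.0283 and 0.126 and was over 0.05 in 5 of 6 cases, and that of DNAJB4 lay between 0.0432 and 0.122 and was also over 0.05 in 5 of 6 cases. In a fit of the 6 libraries alone LINC00999 had an edgeR adjusted p of 0.0691.

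Genes that glucocorticoids induce in many tissues fell as a group. Of 36 tested members of a list of 37 well-known glucocorticoid-induced genes, 30 fell (83.3%) and 3 rose (8.33%). Over all genes tested these shares were 7.44% and 5.38%. The median log2 fold change of the list was -1.02 against -0.01 over all genes tested. Without DEX+BRM014 replicate 2, 29 fell and 2 rose. Beyond the genes above, PDK4, a kinase that shuts glucose carbon out of the mitochondrion, stood at 186, 184 and 169 CPM in the DEX+DMSO libraries and 28.7, 23.2 and 24.8 CPM in the DEX+BRM014 libraries and fell 7.03-fold. GLUL, glutamine synthetase, stood at 462, 431 and 382 CPM in the DEX+DMSO libraries and 101, 98.5 and 85.2 CPM in the DEX+BRM014 libraries and fell 4.48-fold. KLF15, a metabolic transcription factor, stood at 10.4, 10.1 and 9.99 CPM in the DEX+DMSO libraries and 1.46, 1.47 and 1.07 CPM in the DEX+BRM014 libraries and fell 7.63-fold. Smaller falls were called for the transcription factor genes CEBPB (-1.48) and FOXO3 (-1.34), the phosphatase DUSP1 (-1.09), the clock gene PER1 (-0.74) and the metallothionein MT2A (-0.66). PER1 stood at 78.1, 135 and 145 CPM in the DEX+DMSO libraries and 75.7, 70.1 and 68.3 CPM in the DEX+BRM014 libraries, so its groups were separated by less than 3 CPM, and in a fit of the 6 libraries alone its edgeR adjusted p was 0.105.

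The size of the fall differed widely among these target genes, and 3 of them rose. SGK1, a kinase that regulates sodium transport and survival, stood at 138, 120.4 and 120.4 CPM in the DEX+DMSO libraries and 236, 249.6 and 232 CPM in the DEX+BRM014 libraries and rose 1.89-fold (0.92 ± 0.11 (SE, n = 3 per group), edgeR adjusted p = 2.53e-06). KLF6, a zinc finger factor, rose 1.66-fold, and ZFP36 (tristetraprolin), which destabilises inflammatory mRNAs, rose 1.40-fold with an edgeR adjusted p of 0.0403, a call lost in 4 of 6 fits with 1 library left out (adjusted p up to 0.237). CRISPLD2, IRS2 and BIRC3 were not called, with log2 fold changes of -0.04, 0.23 and -0.41. KLF9, RASD1, ARRDC2, TGFBR3, BCL6, CEBPD, ERRFI1 and SAP30 fell by less than 1 on the log2 scale, while HIF3A, PDK4 and KLF15 fell by 2.81 to 3.31. The calls of BCL6, CEBPD, ERRFI1 and SAP30 were lost in 2, 1, 2 and 4 of 6 fits with 1 library left out, with edgeR adjusted p up to 0.0580, 0.0541, 0.0639 and 0.145.

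Genes that DEX raised in other libraries of this cell line were counted as well. In BT549 cells with a non-targeting siRNA, 240 genes rose at least 2-fold after 2 h of DEX (edgeR adjusted p under 0.05, with a group mean of 1 CPM or more after DEX), and all 240 were tested here. With BRM014 present, 141 of them fell (58.8%) and 17 rose (7.08%), with a median log2 fold change of -0.96; over all genes tested these shares were 7.44% and 5.38%. Without DEX+BRM014 replicate 2, 123 fell and 14 rose. Of the 417 genes with a fall of at least 2-fold, 110 were on this list, which is 26.4% of the falls and 45.8% of the list. When every gene called higher after 2 h of DEX was counted, whatever its size, 36.5% of 1185 fell. The members with the largest falls were EDN2, TNNT2, TSC22D3, F3, ELN and TXNIP. TNNT2, cardiac troponin T, stood at 2.87, 2.88 and 5.89 CPM in the DEX+DMSO libraries and 0.0504, 0.163 and 0.298 CPM in the DEX+BRM014 libraries and fell by 4.43 on the log2 scale. The members with the largest rises were HS3ST1, KLF4, IRF2BPL, AHR, FZD7 and SGK1. AHR, the dioxin receptor, stood at 245, 279.4 and 302 CPM in the DEX+DMSO libraries and 581, 551 and 567 CPM in the DEX+BRM014 libraries and rose 2.06-fold. FZD7, a WNT receptor, stood at 89.1, 109.7 and 109 CPM in the DEX+DMSO libraries and 196, 210.2 and 179 CPM in the DEX+BRM014 libraries and rose 1.90-fold. IRF2BPL, a transcriptional coregulator, stood at 129, 153 and 163 CPM in the DEX+DMSO libraries and 335, 365 and 359 CPM in the DEX+BRM014 libraries and rose 2.38-fold. In all 12 genes, picked for their large called changes, the groups did not overlap, against 34.3% of all genes tested.

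The 4 groups taken at 4 h give the level of single genes with and without each agent. TSC22D3 averaged 4.63 ± 0.998 CPM with DMSO (SD, n = 3, as for the following means), 4.87 ± 0.270 CPM with BRM014, 412 ± 42.4 CPM with DEX+DMSO and 19.4 ± 1.79 CPM with DEX+BRM014. DEX thus changed it by 6.48 on the log2 scale in DMSO and by 1.99 in BRM014. For FKBP5 these DEX effects were 7.44 and 3.61, and for GLUL 2.65 and 0.75. ELN averaged 1.86 ± 0.392 CPM with DMSO and 2.28 ± 0.450 CPM with BRM014, and its DEX effects were 4.74 and 0.22, of which the latter was not called. SGK1 kept a DEX effect of 1.35 in DMSO and 1.09 in BRM014, with BRM014 alone raising it from 49.5 ± 4.66 to 113 ± 5.40 CPM. The DEX effect in each condition shares its DEX libraries with the comparison described here, so these values are set side by side only. Fewer cells of one kind and less RNA per cell cannot be told apart in such bulk samples.

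**Figure D3:**
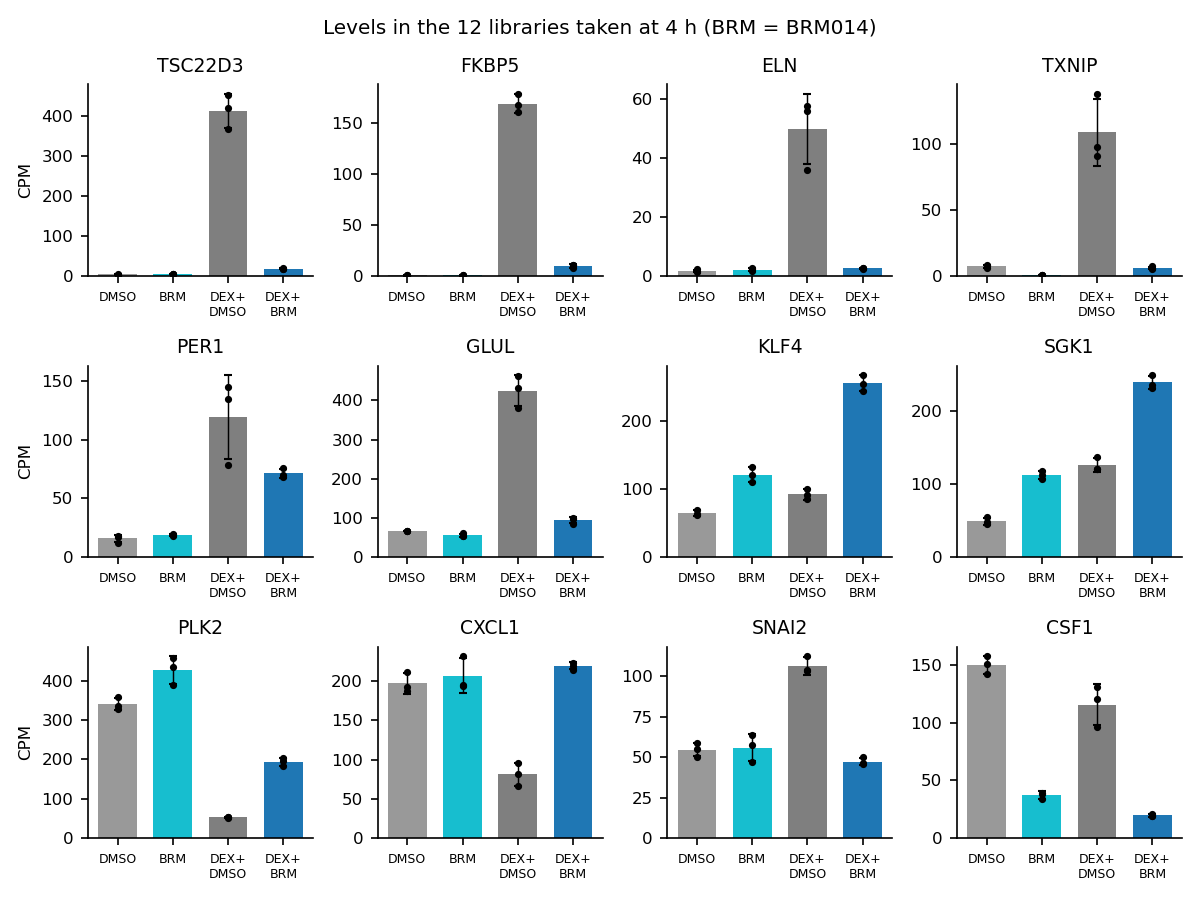
CPM of 12 genes in the 12 libraries taken at 4 h, with bars at the group mean, error bars of 1 SD and a point per library (n = 3 per group). TSC22D3, FKBP5 and ELN are high only in DEX+DMSO among the 4 groups shown, TXNIP is also lower with BRM014 alone, KLF4 and SGK1 are highest in DEX+BRM014, and PLK2 and CXCL1 are low in DEX+DMSO.

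Genes that DEX lowers moved in both directions. In the siRNA control cells, 106 tested genes fell at least 2-fold after 2 h of DEX. Of these, 28 rose (26.4%) and 14 fell (13.2%) with BRM014, with a median of 0.16. Over all genes tested these shares were 5.38% and 7.44%. Leaving out DEX+BRM014 replicate 3 took the number that fell from 14 to 9. Among those that rose, LIF, a cytokine of the interleukin 6 family, stood at 11.1, 8.04 and 10.6 CPM in the DEX+DMSO libraries and 36.2, 19.2 and 20.4 CPM in the DEX+BRM014 libraries and rose 2.56-fold. TFAP2A, a transcription factor of neural crest and mammary epithelium, stood at 21.1, 35.3 and 39.1 CPM in the DEX+DMSO libraries and 63.9, 67.2 and 70.8 CPM in the DEX+BRM014 libraries and rose 2.11-fold. DLX2, a homeobox factor, stood at 1.74, 3.47 and 4.87 CPM in the DEX+DMSO libraries and 5.84, 8.39 and 8.65 CPM in the DEX+BRM014 libraries and rose 2.25-fold; its edgeR adjusted p was 0.0699 in a fit of the 6 libraries alone. PLK2 led the group, and NDNF and HOXA9 completed the 6 largest rises at levels under 1.6 CPM in every library. The edgeR adjusted p of NDNF lay between 7.08e-04 and 0.0694 with 1 library left out, and that of HOXA9 between 0.0349 and 0.0964.

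Among those that fell further, CSF1, the macrophage growth factor, stood at 96.4, 130.5 and 120.2 CPM in the DEX+DMSO libraries and 19.3, 21.1 and 18.9 CPM in the DEX+BRM014 libraries and fell 5.85-fold (-2.55 ± 0.11 (SE, n = 3 per group), edgeR adjusted p = 3.28e-12). EPHA2, an ephrin receptor, stood at 86.6, 82.5 and 83.4 CPM in the DEX+DMSO libraries and 39.2, 32.5 and 28.7 CPM in the DEX+BRM014 libraries and fell 2.52-fold. MSC (musculin), a basic helix-loop-helix repressor, stood at 41.2, 40.4 and 40.6 CPM in the DEX+DMSO libraries and 15.96, 13.8 and 13.4 CPM in the DEX+BRM014 libraries and fell 2.83-fold. S1PR1, a receptor for sphingosine 1-phosphate, stood at 4.10, 4.10 and 4.61 CPM in the DEX+DMSO libraries and 1.66, 1.42 and 1.79 CPM in the DEX+BRM014 libraries and fell 2.63-fold. The 2 others, NRROS and ELF3, lay under 2.5 CPM in all 6 libraries. ELF3 had an edgeR adjusted p between 0.0348 and 0.0911 with 1 library left out.

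The inflammatory genes that glucocorticoids restrain were split. Of 11 tested members of a list of 16, 4 rose and 2 fell (54.5% called, 12.8% over all genes tested), with a median of -0.02. CXCL1, CXCL2, CXCL3 and LIF rose. IL6, the cytokine interleukin 6, instead fell 4.38-fold, with 11.2, 13.1 and 15.5 CPM in the DEX+DMSO libraries and 3.93, 2.69 and 2.51 CPM in the DEX+BRM014 libraries (-2.13 ± 0.42 (SE, n = 3 per group), edgeR adjusted p = 0.00154). With DMSO and no DEX it stood at 13.95, 8.11 and 9.66 CPM. The other fall was CCL2, under 0.5 CPM in every library, which lost its call in 5 of 6 fits with 1 library left out. CXCL8, PTGS2 and ICAM1 were not called. Among 18 NF-kB genes 3 fell and 2 rose (27.8% called). TNFAIP3 (A20) and NFKBIA, inhibitors of the pathway that glucocorticoids also induce, fell 2.96-fold and 1.89-fold. The subunit RELB and the inhibitor NFKBIE instead rose 1.66-fold and 1.76-fold. TNFAIP3 stood at 29.7, 30.6 and 33.6 CPM in the DEX+DMSO libraries and 10.9, 9.16 and 11.8 CPM in the DEX+BRM014 libraries. NFKBIZ, the other fall, had an edgeR adjusted p between 0.0230 and 0.0866 with 1 library left out. No interferon-response gene was called among 34 tested by edgeR or among 35 listed by DESeq2, while 2 had an unadjusted edgeR p under 0.05. Still, 29 of the 34 had a negative log2 fold change, against 7553 of 14547 genes tested. Their median was -0.26 with DEX and -0.37 without, against -0.01 with DEX over all genes tested. Their SEs were often large, as in IFIT1 (-0.32 ± 0.53), so moderate shifts could go uncalled. The 1 tested endothelial gene was not called by edgeR at the adjusted threshold, although its unadjusted p was under 0.05, and DESeq2 called none of the 9 listed. Of these 9, 2 had no count in the 6 libraries and only 1 passed edgeR's filter on low counts. Their lack of DESeq2 calls therefore says little.

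The effect of BRM014 was also measured in 6 libraries without DEX, which share no sample with those above. There 591 genes fell (4.06%) and 671 rose (4.61%). Genes called lower both with and without DEX made up 32.3% of the 1082 with DEX and 59.1% of the 591 without. Genes called higher in both made up 44.6% of the 782 with DEX and 52.0% of the 671 without. Opposite calls were few, with 8 genes lower with DEX and higher without, and 6 the other way. Within the 240 DEX-induced genes 32 fell and 21 rose without DEX, with a median of -0.14, against 141 and 17 with DEX. Of the 240, 70 averaged under 1 CPM in the DMSO libraries without DEX (29.2%, against 13.6% of all genes tested) and had little room for a call lower there; 1 of them was called lower. Of the other 170, 31 fell without DEX and 101 fell and 15 rose with it. Within the DEX-repressed genes the order turned, since 30 fell and 11 rose without DEX, with a median of -0.25, against 14 and 28 with DEX. That list was chosen because DEX lowers its genes, so some had less room for a further fall with DEX. The part of this limit in the turn was not tested. Of the 14 largest falls with DEX, 9 averaged under 1 CPM in those DMSO libraries, and their calls without DEX are therefore not counted. Of the other 5, 1 was called lower without DEX, namely TXNIP, which stood at 8.62, 6.30 and 7.57 CPM with DMSO and 0.866, 0.862 and 1.13 CPM with BRM014. Of the 14 largest rises, 8 were called higher without DEX too.

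The test of the difference between both BRM014 effects called 333 genes (2.29%), of which 82 had a higher value in the presence of DEX and the rest a lower one. Within the DEX-induced list, 78 of 240 had a lower and 4 a higher value. TSC22D3 differed by -4.49 ± 0.27 (SE) on the log2 scale (edgeR adjusted p = 6.28e-09), since without DEX it stood at 3.73, 4.45 and 5.70 CPM with DMSO and 4.66, 4.78 and 5.17 CPM with BRM014. ELN differed by -4.52 ± 0.35 (edgeR adjusted p = 1.41e-07) and FKBP5 by -3.83 ± 0.39 (edgeR adjusted p = 4.14e-06). FKBP5 stood at only 0.711, 1.01 and 1.22 CPM with DMSO and no DEX, so a fall there had little room. ZBTB16 and KLF15 were called as well, but their DMSO libraries held 1 and 3 reads in all, so no size is given for them. In the other direction, C2CD4A, which encodes a nuclear protein, stood at 16.3, 9.39 and 8.73 CPM with DMSO and 2.60, 1.998 and 2.06 CPM with BRM014 without DEX and at 21.1, 15.1 and 16.1 CPM in the DEX+DMSO libraries and 27.8, 26.5 and 25.7 CPM in the DEX+BRM014 libraries, a difference of 2.99 ± 0.43 (edgeR adjusted p = 2.83e-04). FGF18, a fibroblast growth factor, fell by 2.18 on the log2 scale without DEX and changed by -0.19 with it, where it was not called. SOWAHD fell by 1.39 without DEX and changed by 0.29 with it, also not called. PLK2 and CXCL1, which DEX lowered in DMSO by 2.68 and 1.28 on the log2 scale, rose with BRM014 by 1.87 and 1.43 when DEX was present, and changed by 0.33 and 0.07, not called, when it was absent. Their differences were 1.54 ± 0.19 and 1.36 ± 0.19 (edgeR adjusted p = 6.33e-05 and 1.83e-04).

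**Figure D4:**
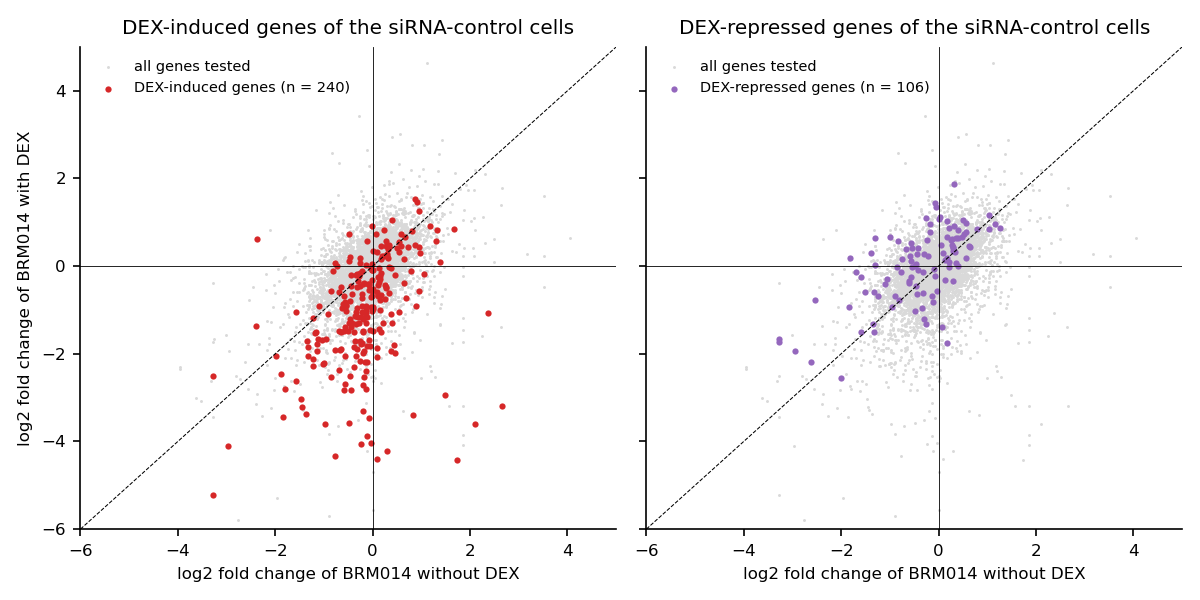
Log2 fold change of BRM014 at 4 h without DEX (x axis) and with DEX (y axis) for all genes tested (grey), with the 240 DEX-induced genes (left, red) and the 106 DEX-repressed genes (right, purple) of the siRNA control cells; the dashed line marks equal effects, and fitted values of genes with few reads without DEX are uncertain on the x axis. Of the red points 191 of 240 lie under the dashed line (median -0.96 with DEX, -0.14 without), and of the purple points 27 of 106 lie under it (medians 0.16 and -0.25).

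Genes of AP-1, a dimer of FOS and JUN family proteins, were called in both directions. Of 18 tested genes of AP-1 and the related MAF and BACH factors, 6 fell (33.3%) and 4 rose (22.2%). Over all genes tested these shares were 7.44% and 5.38%. Without DEX+BRM014 replicate 2, 5 of the list fell and 2 rose. Without DEX+BRM014 replicate 3, 2 rose, and without DEX+DMSO replicate 1, 1 rose. FOS stood at 20.2, 16.2 and 17.4 CPM in the DEX+DMSO libraries and 6.85, 6.47 and 5.54 CPM in the DEX+BRM014 libraries and fell 2.85-fold (-1.51 ± 0.25 (SE, n = 3 per group), edgeR adjusted p = 1.96e-04). JUN stood at 358, 405 and 404 CPM in the DEX+DMSO libraries and 169, 201 and 189 CPM in the DEX+BRM014 libraries and fell 2.09-fold. JUNB, FOSL2 and JDP2 fell by 0.57, 0.44 and 0.52 on the log2 scale, ATF3, ATF7, MAFG and BACH2 rose by 0.70, 0.53, 0.43 and 0.87, and FOSL1 (FRA1) was not called at -0.24. FOS had a different BRM014 effect without DEX, where it rose by 0.85 (difference -2.36 ± 0.36, edgeR adjusted p = 4.37e-04). BACH2 lost its call without DEX+DMSO replicate 1, DEX+BRM014 replicate 2 or DEX+BRM014 replicate 3 (edgeR adjusted p = 0.118, 0.0718 and 0.0630). MAFG, JDP2 and ATF7 lost theirs in 6, 3 and 1 of 6 fits with 1 library left out (edgeR adjusted p up to 0.139, 0.0895 and 0.0852). Genes that fell at least 1.5-fold on knockdown of JUN in DEX-treated BT549 cells numbered 152, of which 35 fell (23.0%) and 8 rose (5.26%) with BRM014, against 7.44% and 5.38% over all genes tested. For FRA1 knockdown, 35 of 197 tested genes fell (17.8%) and 9 rose (4.57%), and for GATA6 knockdown 48 of 270 fell (17.8%) and 13 rose (4.81%), so the shares that rose were near that of all genes. Of the genes that rose on the same knockdowns, 12.7% of 221 fell and 7.24% rose for JUN, 14.9% of 375 fell and 6.67% rose for FRA1, and 25.1% of 299 fell and 3.68% rose for GATA6. Differences between these lists were not tested. GATA6 itself, a zinc finger transcription factor, stood at 84.8, 106 and 111 CPM in the DEX+DMSO libraries and 57.7, 74.2 and 67.01 CPM in the DEX+BRM014 libraries and fell 1.52-fold (-0.60 ± 0.13 (SE, n = 3 per group), edgeR adjusted p = 0.00233).

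Immediate early genes, which respond to growth signals within minutes, rose more often than they fell. Of 25 tested, 9 rose (36%) and 3 fell (12%), against 5.38% and 7.44% of all genes tested. Their median was 0.16. EGR1 stood at 21.2, 23.9 and 27.5 CPM in the DEX+DMSO libraries and 67.2, 56.8 and 52.2 CPM in the DEX+BRM014 libraries and rose 2.43-fold, a call lost in 3 of 6 fits with 1 library left out (edgeR adjusted p up to 0.0765). KLF10, a mediator of TGF-beta responses, stood at 33.9, 34.1 and 38.6 CPM in the DEX+DMSO libraries and 70.9, 71.6 and 67.4 CPM in the DEX+BRM014 libraries and rose 1.97-fold. KLF4, NR4A2, ARC, EGR3, DUSP6, KLF6 and IER3 were the other rises; ARC had an edgeR adjusted p of 0.0677 without DEX+DMSO replicate 2. The MAP kinase phosphatase DUSP4 stood at 16.96, 13.3 and 14.2 CPM in the DEX+DMSO libraries and 6.09, 5.78 and 6.01 CPM in the DEX+BRM014 libraries and fell 2.48-fold, beside falls of ETV4 and NR4A3. With 1 library left out, the calls of DUSP6, IER3, ETV4 and NR4A3 were lost in 3, 2, 2 and 5 of 6 fits, with edgeR adjusted p up to 0.120, 0.0658, 0.100 and 0.206. Without DEX+BRM014 replicate 2 the number that fell was 1, and without DEX+DMSO replicate 2 the number that rose was 5.

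Several genes of secreted proteolysis and of TGF-beta signalling changed. Of 23 tested matrix protease and plasminogen genes 5 fell (21.7%) and none rose by edgeR at the adjusted threshold (median -0.18). Over all genes tested 7.44% fell and 5.38% rose. Without DEX+BRM014 replicate 2, 1 of these 23 genes rose. PLAU, the plasminogen activator urokinase, stood at 101, 102 and 103 CPM in the DEX+DMSO libraries and 41.04, 33.3 and 31.2 CPM in the DEX+BRM014 libraries and fell 2.90-fold (-1.54 ± 0.12 (SE, n = 3 per group), edgeR adjusted p = 1.02e-08). PLAT, the tissue plasminogen activator, fell 3.16-fold from 3.05 CPM on average. Of 26 TGF-beta and BMP genes 10 fell (38.5%) and 7 rose (26.9%). These counts were 8 and 6 without DEX+BRM014 replicate 2. PMEPA1, TGFB3, FST and SMAD6 lost their calls in some fits with 1 library left out (edgeR adjusted p up to 0.170, 0.143, 0.101 and 0.196). The receptor gene TGFBR2 stood at 222, 207 and 203 CPM in the DEX+DMSO libraries and 93.01, 94.5 and 95.1 CPM in the DEX+BRM014 libraries and fell 2.24-fold, and the activin-binding FSTL3 stood at 126, 153 and 163 CPM in the DEX+DMSO libraries and 57.5, 61.03 and 64.8 CPM in the DEX+BRM014 libraries and fell 2.41-fold. BAMBI, a decoy receptor, stood at 91.95, 88.97 and 99.8 CPM in the DEX+DMSO libraries and 243, 264.6 and 233 CPM in the DEX+BRM014 libraries and rose 2.64-fold. The adaptor NEDD9 fell 3.40-fold.

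Metallothioneins bind zinc and copper and are known glucocorticoid targets. Of 8 tested, 5 fell (62.5%, against 7.44% of all genes tested) and none rose by edgeR at the adjusted threshold (median -0.90). Without DEX+BRM014 replicate 2, 4 fell. MT1X stood at 199.7, 253.1 and 278.0 CPM in the DEX+DMSO libraries and 59.4, 55.003 and 58.2 CPM in the DEX+BRM014 libraries and fell 4.24-fold. MT1E stood at 307, 275.8 and 263.9 CPM in the DEX+DMSO libraries and 82.3, 63.4 and 59.9 CPM in the DEX+BRM014 libraries and fell 4.12-fold. Of 16 heat shock genes 7 fell (43.8%, median -0.37). The 1 that rose was DNAJB4, a call lost in 5 of 6 fits with 1 library left out (edgeR adjusted p up to 0.122). HSPA1A and HSPA1B, neighbouring and nearly identical genes of the inducible HSP70 whose reads may be divided between them, fell 1.98-fold and 1.97-fold, and DNAJB1 fell 1.64-fold. HSPA1A stood at 46.2, 47.97 and 46.98 CPM in the DEX+DMSO libraries and 23.4, 24.5 and 23.5 CPM in the DEX+BRM014 libraries. HSPA1A also fell without DEX, by 1.03 on the log2 scale. The 3 falls among 17 tested NRF2 genes (17.6%), TXNRD1, GCLM and SRXN1, were of 1.33-fold to 1.44-fold. GCLM lost its call without DEX+BRM014 replicate 2 (edgeR adjusted p = 0.0703). SRXN1 lost its call without DEX+DMSO replicate 1 or DEX+BRM014 replicate 3 (edgeR adjusted p = 0.119 and 0.119).

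Genes of growth control moved in part. Of 37 tested cell cycle genes 6 fell and 1 rose (18.9% called, against 12.8% of all genes tested). Without DEX+BRM014 replicate 1, 2 fell and none was called higher by edgeR, and without DEX+BRM014 replicate 3, 3 fell and again none was called higher. The rise, CDC25B, a phosphatase that activates cyclin-dependent kinases, lost its call in 4 of 6 such fits (edgeR adjusted p up to 0.178). CCND1, cyclin D1, stood at 38.5, 36.98 and 37.6 CPM in the DEX+DMSO libraries and 10.6, 7.003 and 8.18 CPM in the DEX+BRM014 libraries and fell 4.40-fold (-2.14 ± 0.13 (SE, n = 3 per group), edgeR adjusted p = 4.61e-10), while MKI67 and TOP2A were not called (-0.54 and -0.51). Of 22 genes of cyclin-dependent kinase inhibitors and p53 targets, 7 fell and 4 rose (50% called). TP53INP1, 1 of these falls, lost its call in each fit with 1 library left out (edgeR adjusted p up to 0.155). SESN2, 1 of these rises, lost its call in 2 of 6 such fits (edgeR adjusted p up to 0.0845). CDKN2B (p15) stood at 189, 214 and 219 CPM in the DEX+DMSO libraries and 97.3, 93.1 and 93.8 CPM in the DEX+BRM014 libraries and fell 2.19-fold, CDKN1C (p57) fell 2.91-fold and CDKN1A (p21) fell 1.92-fold. PLK2 and PLK3 rose 3.65-fold and 2.27-fold. DDIT4 (REDD1), a glucocorticoid-induced inhibitor of mTOR, stood at 1753, 1659.5 and 1623 CPM in the DEX+DMSO libraries and 489, 523.2 and 469 CPM in the DEX+BRM014 libraries. It fell 3.40-fold, the leading change among 22 genes of the stress responses, of which 3 fell and 3 rose (27.3% called).

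Genes of cell identity, adhesion and actin held single strong changes. Of 21 mesenchymal genes 3 fell and 2 rose (23.8% called, against 12.8% of all genes tested). One of the rises, FN1 (fibronectin), at 0.43 on the log2 scale, lost its call in each of 6 fits with 1 library left out (edgeR adjusted p between 0.0523 and 0.251). THY1, 1 of the falls, lost its call in some of these fits (edgeR adjusted p up to 0.0925). SNAI2 (Slug) stood at 103, 112 and 103 CPM in the DEX+DMSO libraries and 46.2, 45.6 and 49.8 CPM in the DEX+BRM014 libraries and fell 2.25-fold, and PRRX1 stood at 24.4, 24.9 and 26.3 CPM in the DEX+DMSO libraries and 9.06, 8.96 and 9.03 CPM in the DEX+BRM014 libraries and fell 2.79-fold. SNAI1 (Snail) instead rose 2.51-fold from 1.34 CPM on average, whereas without DEX it fell by 0.81 on the log2 scale (difference 2.14 ± 0.30, edgeR adjusted p = 1.73e-04). Of 33 matrix genes 4 fell and 2 rose (18.2% called), FN1 again among the rises. Without DEX+DMSO replicate 2, DEX+BRM014 replicate 2 or DEX+BRM014 replicate 3, 2 fell. Elastin and FBLN5 (fibulin 5), which assembles elastic fibres, fell 18.7-fold and 4.02-fold, and THBS1, thrombospondin 1, stood at 845, 969 and 956 CPM in the DEX+DMSO libraries and 2311, 2138 and 1886 CPM in the DEX+BRM014 libraries and rose 2.29-fold. Of 22 tested actin and SRF genes 3 fell and 2 rose (22.7% called). Among the falls was VCL, vinculin, at 1266, 1320.2 and 1231 CPM in the DEX+DMSO libraries and 694, 705 and 631 CPM in the DEX+BRM014 libraries. Of 24 YAP and TEAD genes 5 fell and 3 rose (33.3% called), and of 22 epithelial genes 4 fell and 1 rose (22.7% called). Of 22 integrin and laminin genes 3 fell (13.6% called, near the 12.8% of all genes tested). LAMB1, 1 of these falls, lost its call in each fit with 1 library left out (edgeR adjusted p between 0.0753 and 0.170). The YAP and TEAD genes CTGF, a rise, and AMOTL1, a fall, lost theirs in some such fits (edgeR adjusted p up to 0.0738 and 0.115). The epithelial falls numbered 2 without DEX+DMSO replicate 1 or 2 or DEX+BRM014 replicate 2 or 3, and the rise, CLDN1 (claudin 1), lost its call without DEX+DMSO replicate 2 or DEX+BRM014 replicate 1 (edgeR adjusted p up to 0.0681). KRT5, a basal keratin, stood at 1.95, 3.09 and 3.63 CPM in the DEX+DMSO libraries and 0.252, 0.244 and 0.426 CPM in the DEX+BRM014 libraries and fell 9.25-fold, and the keratin KRT19 fell 2.34-fold.

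The remaining lists held 1 to 7 called members each, and 12.8% of all genes tested were called. The EGF, FGF and VEGF genes had 3 falls and 4 rises among 18 tested (38.9% called). VEGFC stood at 4.76, 4.99 and 6.58 CPM in the DEX+DMSO libraries and 12.3, 11.9 and 10.7 CPM in the DEX+BRM014 libraries and rose 2.13-fold, whereas VEGFA, the main angiogenic factor, stood at 123, 126 and 150.1 CPM in the DEX+DMSO libraries and 68.04, 65.1 and 69.95 CPM in the DEX+BRM014 libraries and fell 1.96-fold; without DEX+BRM014 replicate 2, the list had 2 rises. WNT genes had 2 falls and 2 rises among 16 (25.0%), semaphorin genes 4 falls and 1 rise among 24 (20.8%), clock genes 1 fall and 2 rises among 18 (16.7%), and MYC and nucleolar genes 1 fall and 2 rises among 19 (15.8%). In the last of these, the fall, ODC1, lost its call in 4 of 6 fits with 1 library left out and the rise of NOP56 in 5 (edgeR adjusted p up to 0.111 and 0.162), and NOP56 was not called in a fit of the 6 libraries alone either (edgeR adjusted p = 0.0515). SEMA7A, a membrane-anchored semaphorin, stood at 0.256, 0.254 and 0.256 CPM in the DEX+DMSO libraries and 1.36, 1.59 and 1.70 CPM in the DEX+BRM014 libraries and rose 5.98-fold, while SEMA6A fell 3.51-fold. DKK3, a secreted protein of the WNT inhibitor family, stood at 23.97, 31.01 and 33.4 CPM in the DEX+DMSO libraries and 13.04, 14.8 and 12.8 CPM in the DEX+BRM014 libraries and fell 2.18-fold. Among 7 tested genes of GATA factors and their partners 3 were called (42.9%). GATA2 rose 1.83-fold and ZFPM2 fell 1.85-fold beside GATA6. Of 6 tested luminal and receptor genes 1 fell, XBP1, and of 4 tested leukocyte genes CD14 fell, a call lost in 4 of 6 fits with 1 library left out (edgeR adjusted p up to 0.187, without DEX+DMSO replicate 1).

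**Figure D5:**
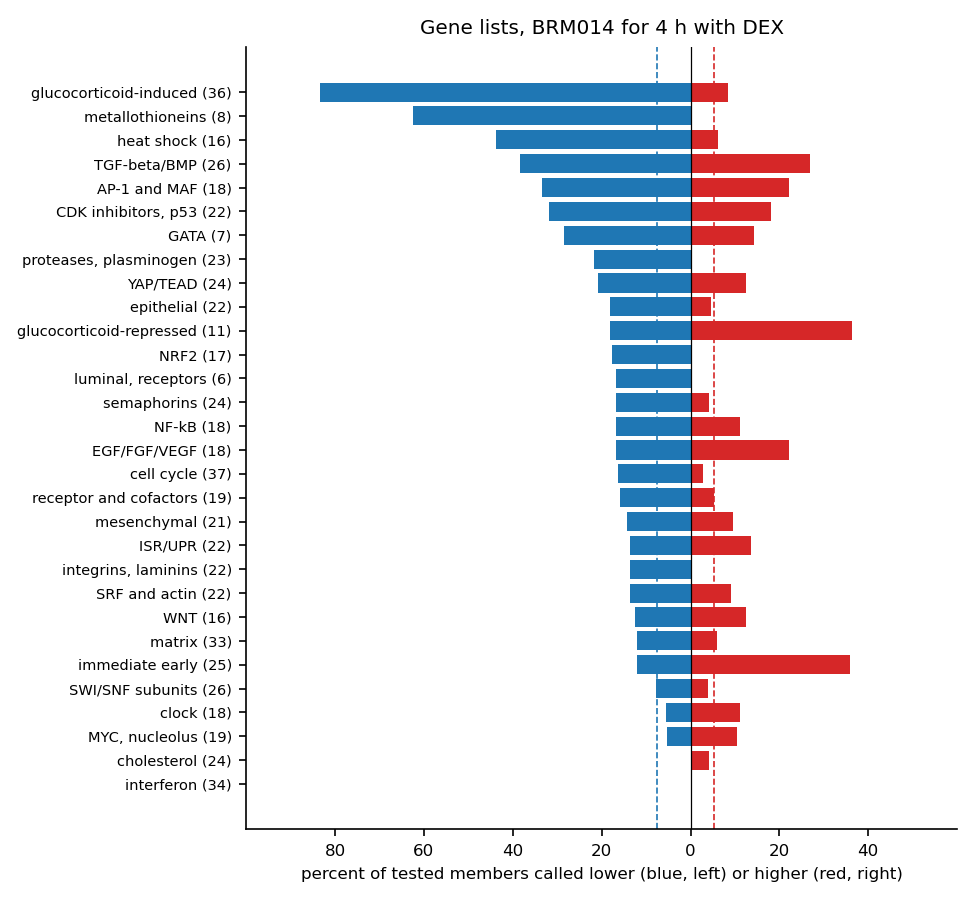
Percent of tested members called lower (blue bars, to the left) or higher (red bars, to the right) in each gene list, with the number tested in brackets and dashed lines at the shares over all genes tested (7.44% lower, 5.38% higher); lists with under 6 tested members are not drawn. Glucocorticoid-induced genes (83.3% lower) and metallothioneins (62.5% lower) have the longest bars to the left, and immediate early and glucocorticoid-repressed genes (36.0% and 36.4% higher) the longest to the right.

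At 24 h of the same treatments, in 6 other libraries, 2604 genes were called lower (17.9%) and 2565 higher (17.6%). Of the 1082 genes lower at 4 h, 587 were lower at 24 h (54.3% of the former, 22.5% of the latter) and 88 were higher. Of the 782 higher at 4 h, 423 were higher at 24 h (54.1% and 16.5%) and 48 were lower. The test of the difference between both time points called 2621 genes (18%), 1361 with a higher and 1260 with a lower value at 24 h. Of the 14 largest falls, 12 were lower at 24 h too, with FKBP5 at 1344 ± 63.8 CPM in DEX+DMSO and 128 ± 29.1 CPM in DEX+BRM014, and ELN at 137 ± 25.1 and 7.99 ± 1.91 CPM. TMEM63C and FGD4 were not called at 24 h. KCNV1, a potassium channel subunit, and RRAD, a small GTPase, turned over, falling by 3.04 and 3.47 on the log2 scale at 4 h and rising by 2.66 and 1.93 at 24 h. SLC6A19, an amino acid transporter, did the same (-3.20 and 1.22). CACNA1H, a calcium channel subunit, changed by 1.13 at 4 h, not called, and by 5.42 at 24 h. The genes ALDH3A1, CPAMD8, STRA6 and INHBB were not called at 4 h (-0.15, -0.53, -0.35 and 0.16) and fell at 24 h by 4.30, 4.68, 4.48 and 3.97 on the log2 scale. SGK223, the first of the 14 largest rises at 4 h, averaged 36.05 ± 9.21 and 34.9 ± 11.6 CPM at 24 h, and RIPK4 stayed higher at 30.8 ± 3.81 and 112 ± 15.9 CPM.

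Promoter sequences are given for the 3 genes with the largest fall and the 3 with the largest rise that have an entry in the RefSeq promoter table, to show what lies at the start of the most changed genes. Each runs from 250 bases before to 50 bases after the annotated start, 5′ to 3′ on the gene's strand, in GRCh38.p14, the build family the submitters' processing notes name. Capitals mark matches, on either strand, to 6 short motifs searched by letters alone: AP-1 (TGANTCA), TEAD (GGAATG), the glucocorticoid receptor palindrome (GNACA and TGTNC, 3 bases apart), the TATA box (TATAAA), the cAMP response element (TGACGTCA) and NF-kB (GGGA and CC, 4 bases apart). All 6 genes lie on the minus strand, EDN2 at chr1:41484634-41484933, TSC22D3 at chrX:107775939-107776238, F3 at chr1:94541710-94542009, CXCL3 at chr4:74038640-74038939, PLK2 at chr5:58460037-58460336 and HS3ST1 at chr4:11428845-11429144.
EDN2: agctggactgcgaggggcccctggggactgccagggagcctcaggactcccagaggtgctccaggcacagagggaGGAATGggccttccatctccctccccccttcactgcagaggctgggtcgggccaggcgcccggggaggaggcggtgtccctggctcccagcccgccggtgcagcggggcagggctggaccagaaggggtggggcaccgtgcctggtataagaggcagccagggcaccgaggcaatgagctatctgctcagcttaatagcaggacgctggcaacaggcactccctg
TSC22D3: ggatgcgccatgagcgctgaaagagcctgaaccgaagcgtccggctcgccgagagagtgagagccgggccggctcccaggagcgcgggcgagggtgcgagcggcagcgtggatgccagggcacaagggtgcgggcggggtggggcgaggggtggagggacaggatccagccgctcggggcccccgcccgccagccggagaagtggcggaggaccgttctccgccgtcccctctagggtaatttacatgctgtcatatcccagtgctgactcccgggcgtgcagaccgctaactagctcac
F3: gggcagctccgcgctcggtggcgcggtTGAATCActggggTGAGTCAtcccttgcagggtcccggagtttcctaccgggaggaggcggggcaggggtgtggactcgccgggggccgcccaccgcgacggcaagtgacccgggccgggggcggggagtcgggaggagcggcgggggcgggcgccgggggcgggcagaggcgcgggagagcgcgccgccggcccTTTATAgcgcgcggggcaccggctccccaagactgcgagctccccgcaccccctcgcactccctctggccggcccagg
CXCL3: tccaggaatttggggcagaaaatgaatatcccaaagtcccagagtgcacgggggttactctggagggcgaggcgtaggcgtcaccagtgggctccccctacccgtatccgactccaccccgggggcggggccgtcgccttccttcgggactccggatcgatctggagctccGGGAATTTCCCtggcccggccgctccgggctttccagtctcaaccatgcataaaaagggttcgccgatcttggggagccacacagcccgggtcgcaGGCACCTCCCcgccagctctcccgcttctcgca
PLK2: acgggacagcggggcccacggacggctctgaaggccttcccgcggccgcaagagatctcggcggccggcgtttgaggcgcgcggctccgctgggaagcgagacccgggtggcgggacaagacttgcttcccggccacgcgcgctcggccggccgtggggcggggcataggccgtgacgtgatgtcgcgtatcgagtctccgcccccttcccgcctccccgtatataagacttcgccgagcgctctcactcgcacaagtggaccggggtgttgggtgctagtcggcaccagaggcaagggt
HS3ST1: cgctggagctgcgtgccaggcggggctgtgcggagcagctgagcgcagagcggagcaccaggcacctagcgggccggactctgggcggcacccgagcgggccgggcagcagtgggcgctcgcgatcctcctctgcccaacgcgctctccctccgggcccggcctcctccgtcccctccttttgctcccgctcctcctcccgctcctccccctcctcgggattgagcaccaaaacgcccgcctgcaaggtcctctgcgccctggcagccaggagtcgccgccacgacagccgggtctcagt
In F3, which fell, 2 AP-1 matches begin 223 and 210 bases before the start and a TATA match begins 28 bases before it. CXCL3, which rose, has 2 overlapping NF-kB matches that begin 79 and 78 bases before the start and another 17 bases after it. EDN2 has 1 TEAD match 175 bases before the start, and TSC22D3, PLK2 and HS3ST1 have no match to these letters in the window. Only 1 entry was taken per gene, and other starts of a gene were not searched. Among the promoters of 10595 of the 14547 tested genes, 4.58% held an AP-1 match, 10.8% a TEAD match, 0.17% a receptor palindrome, 5.50% a TATA match, 3.21% a cAMP response element and 31.1% an NF-kB match. Shares in the called genes are not compared with these, since 64.5% of the 417 genes lower by at least 2-fold and 56.1% of the 123 higher by at least 2-fold had an entry, under 80% of each set, which makes such a comparison void. A match is a description of letters and not a bound site.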

How the data were processed

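Total RNA of BT549 cells was depleted of ribosomal RNA and sequenced on a NovaSeq instrument, per the labels' protocols. The authors deposited raw read counts per gene symbol for each library; the submitters' processing notes name bcl2fastq, SAMtools, featureCounts, DESeq2 and GRCh38/hg38, while the aligner, the annotation, the versions and the strand setting were not given in the sources used. Without strand, reads of a gene and its antisense partner cannot be told apart. Counts of 26517 symbols were tested with edgeR 4.0.16 (R 4.3.3; TMM, filterByExpr, robust quasi-likelihood test, Benjamini-Hochberg adjustment over 14547 genes) in 1 fit of the 24 libraries of the BRM014 experiment, 8 groups of 3, which share 1 estimate of the spread. SEs are the absolute log2 fold change over the square root of F. The fit recovered most 4-fold changes set in simulated counts, drawn with this fit's own spread, in genes of at least 1 CPM. Those counts held no library that stood apart, and recovery of smaller changes is not given here. The 24 libraries held 13243316 to 29339329 counts, which sets the precision of low genes. No 2 replicates agreed within sampling noise.

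Genes named in the text are the 14 largest called falls and rises of at least 5 CPM without overlap of the groups, up to 4 members of each of 32 lists, 6 members each way of the DEX sets, 4 each way of both difference tests, and SMARCA4, SMARCA2, NR3C1 and GATA6. A few genes that this choice or a list holds are not reported here. Others named among the members of a list were chosen after their values were seen. The members and lists were chosen with earlier results of these data known. Between both compared groups, deviations of same-numbered replicates correlated at 0.118 to 0.219 over 3 pairs, and those of the other pairs at 0.00969 or less. The labels state no pairing, and these values do not settle whether the numbers pair the samples. The main test used no replicate block, and counts with such a block are given below. Alternatives were DESeq2 1.42.0 size factors and test, library totals, no filter, the 2 groups alone, a replicate block and each library left out.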

Additional observations from a re-analysis of the deposited data

Results flagged for a closer look

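The effect of BRM014 at 4 h differed between cells with and without DEX for 333 genes by edgeR's test of the difference. Given here are 18 of them, drawn from the largest falls and rises, the leading members of the DEX sets and the largest differences, with more than 3 reads in each of the 4 groups. The values below are the effect with DEX minus that without, on the log2 scale. Among falls with DEX they were -4.49 for TSC22D3, -4.52 for ELN, -3.83 for FKBP5, -4.00 for ADAMTS8, -3.56 for F3, -3.21 for TMEM63C, -3.09 for MT1M, -2.63 for ITPKA and -1.46 for S1PR1. Several of these genes were low without DEX. With DMSO and no DEX, ADAMTS8 stood at 0.267, 0.617 and 0.407 CPM and FKBP5 at 0.711, 1.01 and 1.22 CPM. Such levels leave little room for a fall without DEX, so the sizes of these differences are uncertain. Genes with a higher effect in the presence of DEX were C2CD4A at 2.99, FGF18 at 1.99, SOWAHD at 1.68, SLC9A7 at 1.63, PLK2 at 1.54, CXCL1 at 1.36, EFNA3 at 1.28, TFAP2A at 1.07 and FZD7 at 0.94. F3 had 8 and 5 reads in all in the DMSO and BRM014 groups without DEX, and its difference was not called in 8 of 12 fits with 1 library left out (edgeR adjusted p up to 0.212, without BRM014 replicate 1 of the cells without DEX). TFAP2A lost the call in a fit of the 4 groups alone (edgeR adjusted p = 0.0560).

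The effect of BRM014 in DEX-treated cells differed between 24 h and 4 h for 2621 genes by edgeR's test. Given here are 19 of them, drawn from the largest falls and rises at 4 h and the largest differences. The values are the effect at 24 h minus that at 4 h, on the log2 scale. Among the largest falls at 4 h they were 1.10 for TSC22D3, 1.49 for F3, 1.92 for ADAMTS8, 3.48 for FGD4, 1.63 for ITPKA, 1.77 for MT1M and 3.75 for TMEM63C. Among the largest rises they were -2.93 for SGK223, -1.09 for CXCL3, -0.95 for PLK2 and -0.79 for KLF4. Lower values at 24 h were -4.15 for ALDH3A1, -4.15 for CPAMD8, -4.14 for STRA6 and -4.13 for INHBB. The other values were 5.69 for KCNV1, 5.40 for RRAD, 4.42 for SLC6A19 and 4.29 for CACNA1H. F3 lost this call in 7 of 12 such fits, FGD4 in 2 and CPAMD8 in 1, with edgeR adjusted p up to 0.180, 0.0592 and 0.185.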

How the results depend on the processing

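With library totals in place of TMM factors, 1321 genes were called higher against 782, the median of all genes moved from -0.01 to 0.06, and SMARCA2, not called either way, turned from -0.06 to 0.0098 (edgeR adjusted p = 0.988). With a replicate block, 991 genes were called higher and 1315 lower, and the difference between cells with and without DEX was called higher for 131 genes against 82. That block changed none of the 132 calls of named genes. For this difference and for that between 24 h and 4 h, some same-numbered pairs correlated under 0.1, so the numbers may only share a label there. DESeq2 called 808 genes higher and 1068 lower, and no filter on low counts gave 725 and 904. With 1 library left out, DEX-repressed genes called lower ranged from 9 to 15. Without a minimum fold, the DEX sets gave 36.5% of induced genes lower and 12.98% of repressed genes higher, against 58.8% and 26.4%. Of the 132 called named genes 105 kept the call whichever library was left out, and none changed sign under any alternative run. In 6 libraries of this depth a gene with few reads in a group has an uncertain fold.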
